A study of Homo sapiens with 8 samples.

Results

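The genes described here encode aminoacyl-tRNA synthetases, the enzymes that load each tRNA with its amino acid. The count table held 35 of them among 36474 genes, found by their gene names. The names separate 17 genes for enzymes of the cytosol (names ending in 1, with FARSA and FARSB), 16 genes for enzymes imported into mitochondria (names ending in 2), and GARS1 and KARS1, which encode the glycyl and lysyl enzymes of both compartments. All 35 passed the filter on low counts, which 21071 genes passed.

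A cell of this kind runs translation in 2 places. Cytosolic ribosomes read nuclear messages with tRNAs charged by the cytosolic enzymes, and mitochondrial ribosomes read the few messages of the mitochondrial genome with tRNAs charged by a largely separate, nuclear-encoded set. Several cytosolic enzymes sit together in the multi-synthetase complex on scaffold proteins. Uncharged tRNA activates the kinase GCN2 (gene EIF2AK4), which phosphorylates eIF2 and favours translation of ATF4, a transcription factor whose known targets include cytosolic synthetase genes and the asparagine synthetase gene ASNS. ATF4 binds, with a C/EBP partner, an element written TGATGNAA.

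The cells were LNCaP, an established line from a prostate cancer metastasis. They were starved for several hours in medium without serum and calcium and then given 100 ng/mL of recombinant ASPN (asporin, a proteoglycan of the extracellular matrix). Polyadenylated RNA was sequenced at 0 h (2 libraries), 12 h (3 libraries) and 24 h (3 libraries), and every group carried the ASPN treatment label and the same starvation. Another 0 h library was left out by the authors for quality. No untreated library of 12 h or 24 h was analysed here, so the effect of ASPN and that of longer time in the starvation medium cannot be told apart. The labels call the libraries biological replicates and the wells were plated in triplicate, so the p-values measure the spread between wells of 1 line. In bulk RNA, fewer cells with a transcript and less transcript per cell cannot be told apart either.

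The libraries held 73406825 to 96962135 counts in genes, of which 6.20% to 7.32% came from the mitochondrial genome. Each of 5 markers of LNCaP cells (KLK3, KLK2, TMPRSS2, FOLH1 and HOXB13) was present in every library. Their summed level was 3373 and 3424 CPM (counts scaled to the size of the library) at 0 h, 3806 to 3812 at 12 h and 3834 to 3995 at 24 h. Of the 5, 4 rose at 12 h and 5 at 24 h, where 4.85% and 7.82% of all genes tested rose. Of 7 markers of fibroblasts, leukocytes and endothelium, DCN, PTPRC and PECAM1 were at 0 in at least 1 library and never above 7 counts. The summed level of these 7 genes was 36.4 to 38.2 CPM at 0 h, 34.98 to 37.32 at 12 h and 31.3 to 33.8 at 24 h, mostly from COL1A1 and VWF, and VWF fell at 24 h (log2 change -0.38, adjusted p = 0.00175). The part of these markers in the results below was not tested.

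Most cytosolic synthetase genes were lower at both times after ASPN, and no mitochondrial one passed the test. By edgeR's quasi-likelihood test with Benjamini-Hochberg adjustment over all genes tested, 11 of the 17 cytosolic genes fell at 12 h and 0 rose, where 6.75% of all genes tested fell and 4.85% rose. At 24 h the same 11 genes were lower and 0 were higher, where 8.49% of all genes fell and 7.82% rose. As higher, 1 cytosolic gene at 12 h and 0 at 24 h passed an unadjusted p under 0.05, and DESeq2 called 1 and 0. Of the 16 mitochondrial genes 0 passed at either time (at an unadjusted p under 0.05, 2 at 12 h and 4 at 24 h, with 0 and 2 called by DESeq2). For counts at an unadjusted p or by DESeq2, here and below, the share over all genes was not computed. Whether they exceed that share is therefore not known. Whether the compartments differed as sets was not tested, and the pairs of genes for 1 amino acid are described below. The median log2 change of the cytosolic genes was -0.16 at 12 h and -0.24 at 24 h, that of the mitochondrial genes was 0.011 and 0.014, and that of all genes tested was -0.00069 and -0.0031.

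Summed over the 17 cytosolic genes, the level was 6644 and 6508 CPM in the 2 libraries of 0 h. It was 5784, 5656 and 5793 CPM in those of 12 h and 5416, 5549 and 5470 CPM in those of 24 h. Each later library therefore lay below both 0 h libraries, and each library of 24 h below each of 12 h. The mean was 6576 ± 95.6 CPM (SD, n = 2) at 0 h, 5744 ± 76.7 CPM (SD, n = 3) at 12 h, lower by 12.7%, and 5478 ± 67.1 CPM (SD, n = 3) at 24 h, lower by 16.7%. Summed over the 16 mitochondrial genes, the level was 791 ± 4.72 CPM (SD, n = 2) at 0 h, 809 ± 1.95 CPM (SD, n = 3) at 12 h and 783 ± 5.29 CPM (SD, n = 3) at 24 h. The mitochondrial sums of 12 h lay above, and those of 24 h below, both sums of 0 h, by 2.25% and 0.996% of the 0 h mean. GARS1 and KARS1 together were at 823 ± 25.9 CPM (SD, n = 2) at 0 h, 677 ± 8.32 CPM (SD, n = 3) at 12 h and 633 ± 19.9 CPM (SD, n = 3) at 24 h.

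**Figure D1:**
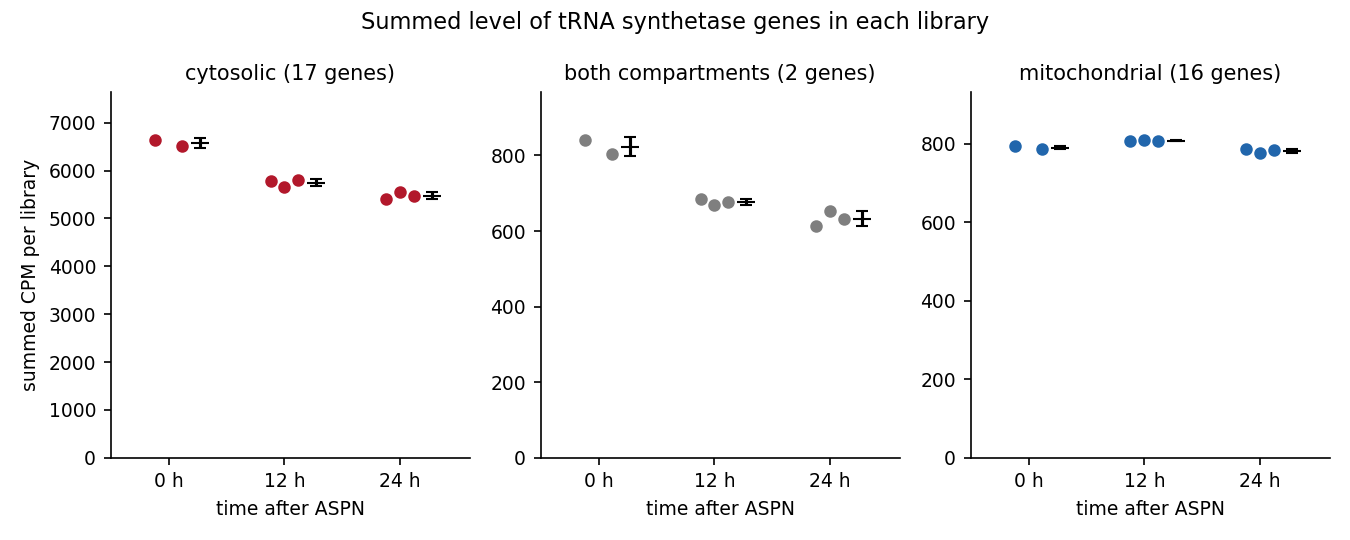
Summed level in CPM (vertical axes from 0) of the cytosolic genes, of GARS1 and KARS1, and of the mitochondrial genes in each library, against time after ASPN. Coloured points are libraries and black marks are means with the SD; the cytosolic sums of 12 h and 24 h lie below both sums of 0 h (means 6576, 5744 and 5478 CPM), while the mitochondrial means are 791, 809 and 783 CPM.

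**Figure D2:**
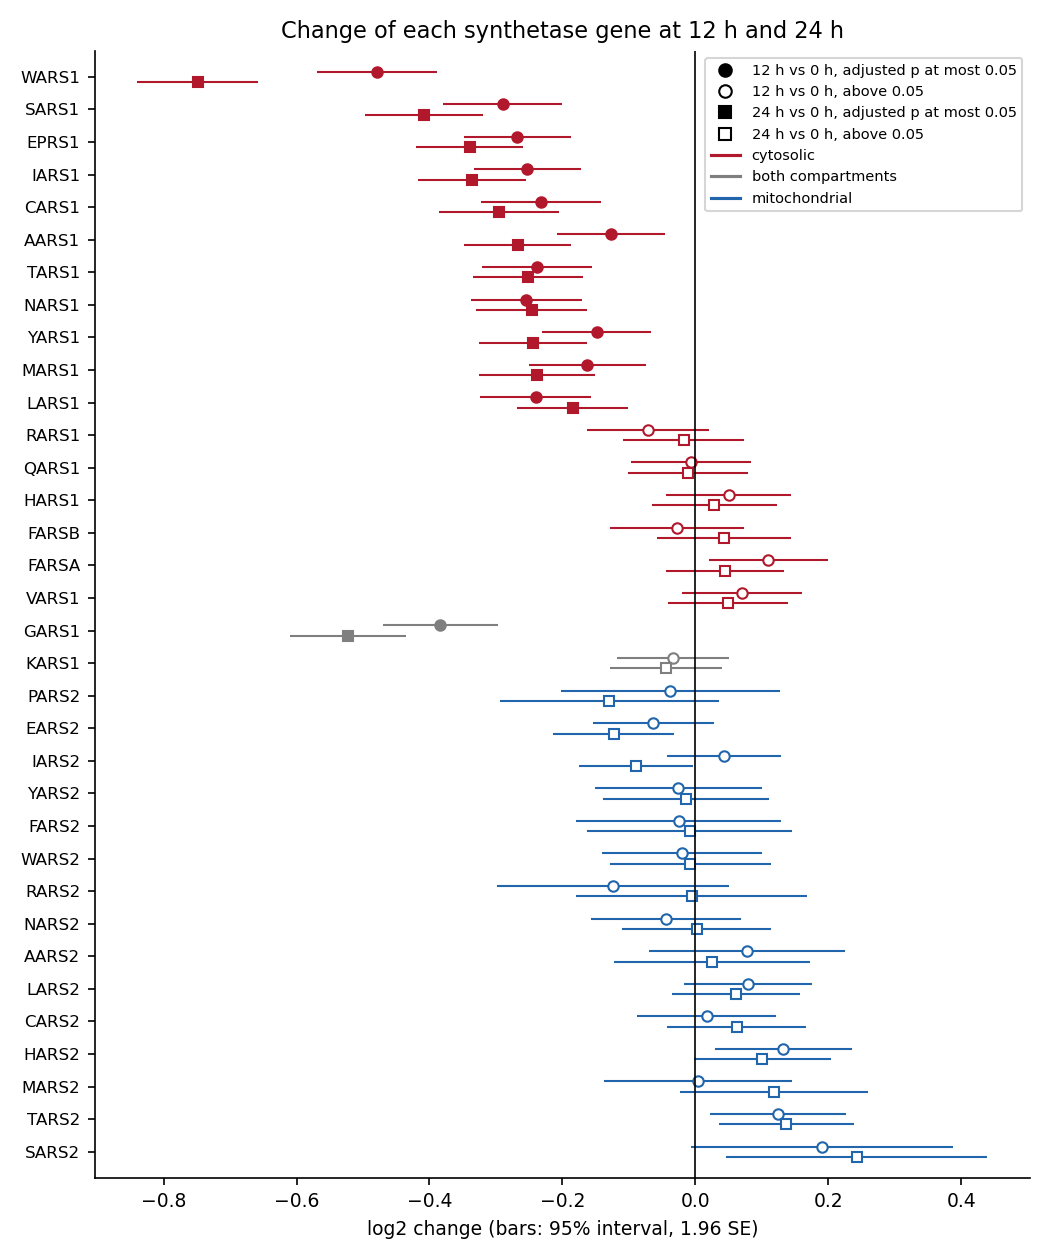
Log2 change of 34 synthetase genes (horizontal axis) against 0 h at 12 h (circles) and 24 h (squares), with 95% intervals and with filled symbols for an adjusted p of at most 0.05. VARS2, with 7 to 27 counts per library, is left out; the filled symbols belong to 11 cytosolic genes and GARS1, all of them left of 0.

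Promoter sequence was examined because 11 cytosolic genes fell together and because ATF4 itself changed (below). RefSeq windows of 300 bases on GRCh38.p14, from 250 bases before to 50 after a transcription start, were at hand for 30 of the 35 genes, in 39 windows. There was none for LARS1, VARS1, YARS1, AARS2 and VARS2. The letters TGATGCAA, searched on both strands, were in 6 of 18 cytosolic windows (33.3%), in 0 of 18 mitochondrial windows, in 0 of the 3 windows of GARS1 and KARS1, and in 304 of all 35116 windows (0.866%). The wider TGATGNAA, which includes every match of the first, was in the same number of cytosolic windows, in 1 of 18 mitochondrial ones (5.56%) and in 3.62% of all windows. The 6 cytosolic matches were in AARS1, CARS1, IARS1, MARS1, NARS1 and TARS1, each of which fell at both times. They amount to 6 of the 13 windows of cytosolic genes that passed the test at 24 h (46.2%), against 0 of the 5 windows of those that did not. Windows are counted here and not genes, and a gene with several starts has several windows. The split between passing and other genes was itself taken from these data. A match describes these letters in these windows and is not a measurement of binding. ATF4 was measured only as RNA, and its part in the falls of the synthetase genes was not tested.

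The matched stretches are shown to let the element be compared between genes. Each is 30 bases, 5′ to 3′ on the strand of its gene, with the element in capitals. It reads TGATGCAA where it lies in the direction of the gene and TTGCATCA where it lies against it. The first 6 hold TGATGCAA on one strand or the other, and the GARS1 and YARS2 stretches hold only the wider form.
AARS1, chr16:70289675-70289704, minus strand: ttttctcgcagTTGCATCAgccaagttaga
CARS1, chr11:3057407-3057436, minus strand: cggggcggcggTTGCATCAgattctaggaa
IARS1, chr9:92293692-92293721, minus strand: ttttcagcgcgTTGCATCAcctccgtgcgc
MARS1, chr12:57488053-57488082, plus strand: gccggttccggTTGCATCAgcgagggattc
NARS1, chr18:57621804-57621833, minus strand: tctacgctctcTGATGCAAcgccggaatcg
TARS1, chr5:33440956-33440985, plus strand: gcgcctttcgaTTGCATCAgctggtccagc
GARS1, chr7:30594834-30594863, plus strand: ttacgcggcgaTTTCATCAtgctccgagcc
YARS2, chr12:32756076-32756105, minus strand: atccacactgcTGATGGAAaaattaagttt

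Counted from the annotated start as 0, the first base of the element stood at -13 in IARS1, -4 in MARS1, -2 in CARS1, 2 in TARS1 and 14 in NARS1, so that it began within 14 bases of the start in 5 of the 6. It stood at -187 in AARS1, at -33 in GARS1 and at -197 in YARS2. The element ran against the direction of the gene in AARS1, CARS1, IARS1, MARS1, TARS1 and GARS1.

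WARS1 (ENSG00000140105.18, chr14:100333790-100376805 on GRCh38) had the largest fall of the 35 genes. It encodes the tryptophanyl enzyme, also known for its induction by interferon. Its level was 398 and 365 CPM at 0 h, 273, 271 and 278 CPM at 12 h, and 215, 236 and 230 CPM at 24 h. The 3 times did not overlap. It fell by 28.2% at 12 h (log2 change -0.48, SE 0.046, adjusted p = 2.74e-08) and by 40.5% at 24 h (log2 change -0.75, SE 0.046, adjusted p = 2.33e-13). WARS1 at 24 h was the only change of the 17 cytosolic genes past both an adjusted p of 0.05 and a fold of 1.5, where 1.35% of all genes tested fell past both. At 12 h, 0 of the 17 passed both, where 0.565% of all genes did. A noncoding gene on the other strand shares 6.06% of its exon bases and WDR25 4.52%.

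The seryl gene SARS1 (ENSG00000031698.13, chr1:109213918-109238182) had the largest fall of the cytosolic-only genes after WARS1. Its enzyme also charges the tRNA on which selenocysteine is made. Its level was 508 and 490 CPM at 0 h, 425, 381 and 418 CPM at 12 h, and 371, 384 and 374 CPM at 24 h. All later libraries lay below those of 0 h, and the libraries of 12 h and 24 h overlapped. SARS1 fell by 18.2% at 12 h (log2 change -0.29, SE 0.046, adjusted p = 3.81e-05) and by 24.6% at 24 h (log2 change -0.41, SE 0.045, adjusted p = 5.49e-08).

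EPRS1 (ENSG00000136628.18, chr1:219968600-220046530) encodes 1 protein with a glutamyl and a prolyl enzyme, a member of the multi-synthetase complex. It was measured at 838 and 791 CPM at 0 h, 679, 669 and 681 CPM at 12 h, and 634, 658 and 639 CPM at 24 h. It fell by 16.9% (log2 change -0.27, SE 0.041, adjusted p = 2.95e-05) and by 21.0% (log2 change -0.34, SE 0.041, adjusted p = 2.61e-07). IARS1 (ENSG00000196305.19, chr9:92210207-92293854), the isoleucyl gene of the same complex, was at 738 and 694 CPM at 0 h, 603, 591 and 608 CPM at 12 h, and 565, 575 and 561 CPM at 24 h. It fell by 16.1% (log2 change -0.25, SE 0.041, adjusted p = 6.76e-05) and by 20.8% (log2 change -0.34, SE 0.041, adjusted p = 3.41e-07). In both genes the 3 times did not overlap.

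CARS1 (ENSG00000110619.18, chr11:3000922-3057613) charges cysteine tRNA. It was at 154 and 150 CPM at 0 h, 133, 124 and 131 CPM at 12 h, and 123, 128 and 121 CPM at 24 h. It fell by 14.9% (log2 change -0.23, SE 0.046, adjusted p = 0.000784) and by 18.5% (log2 change -0.29, SE 0.046, adjusted p = 1.61e-05), and its libraries of 12 h and 24 h overlapped. AARS1 (ENSG00000090861.17, chr16:70251983-70289707), the alanyl gene, was the most counted of the cytosolic genes, at 972 and 1001 CPM at 0 h, 914, 868 and 928 CPM at 12 h, and 817, 823 and 819 CPM at 24 h. It fell by 16.9% at 24 h (log2 change -0.27, SE 0.041, adjusted p = 1.28e-05). Its lower level at 12 h (log2 change -0.13, SE 0.041, adjusted p = 0.0409) was near the threshold and lost its call under 11 of 14 alternatives, with adjusted p up to 0.234 without the unnumbered 0 h library.

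**Figure D3:**
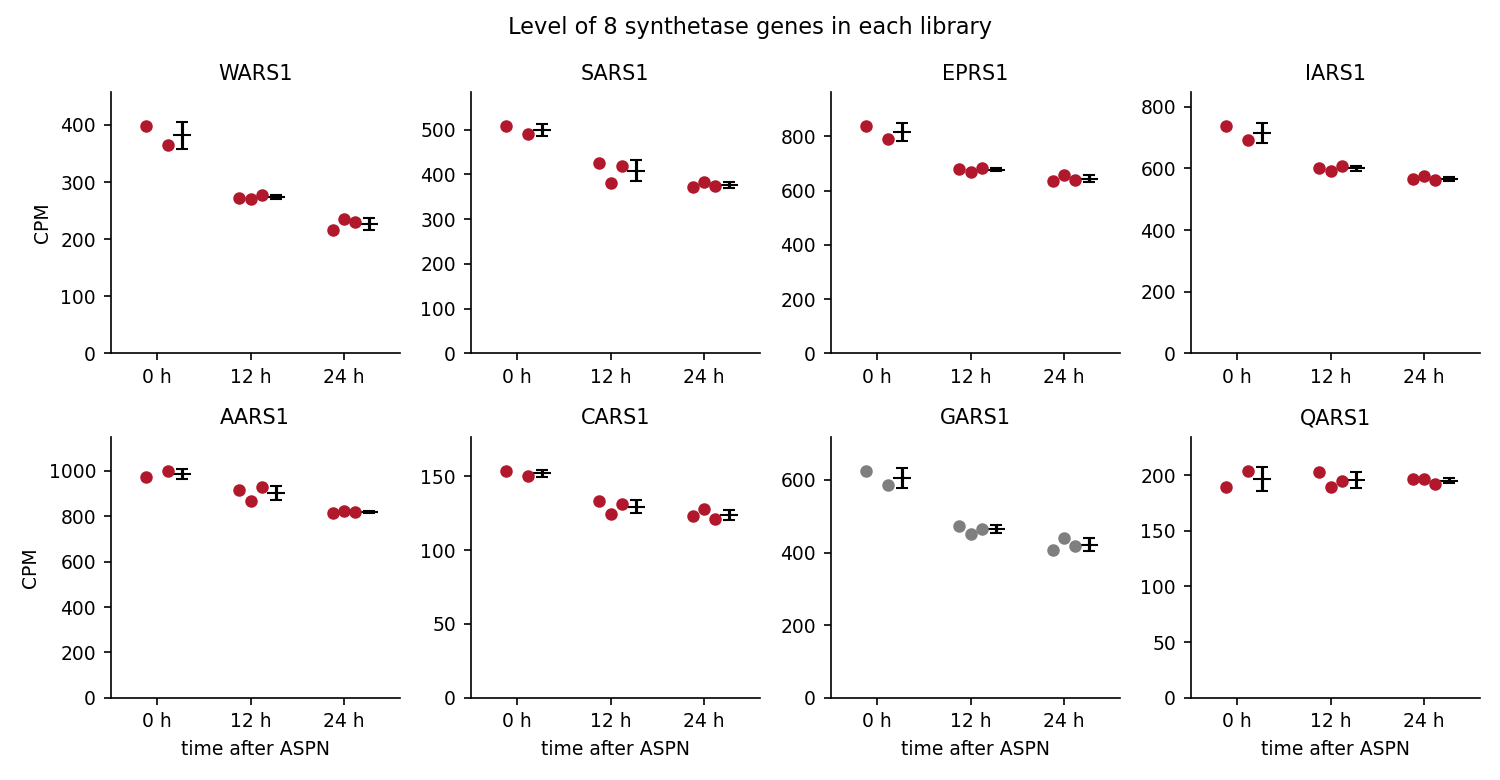
Level in CPM (vertical axes from 0) of WARS1, SARS1, EPRS1, IARS1, AARS1, CARS1, GARS1 and QARS1 in each library at 0 h, 12 h and 24 h after ASPN. Points are libraries and black marks are means with the SD; every later library lies below both 0 h libraries except for QARS1, whose times overlap (189 to 204 CPM).

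The other 5 cytosolic genes that fell had 24 h log2 changes of -0.18 to -0.25. TARS1, the threonyl gene, fell by 15.2% at 12 h and by 16.0% at 24 h, and NARS1, the asparaginyl gene, by 16.2% and by 15.7%. The leucyl gene LARS1 fell by 15.3% at 12 h and by 12.0% at 24 h, and its 24 h call did not hold without replicate 1 of 0 h (adjusted p = 0.0639). The tyrosyl gene YARS1 fell by 9.78% and by 15.6%, and the methionyl gene MARS1 by 10.6% and by 15.2%. At 12 h the calls of MARS1 and YARS1 did not hold without the unnumbered 0 h library (adjusted p = 0.0799 and 0.125) or without replicate 3 of 12 h (0.0620 and 0.0581), and that of MARS1 also not without replicate 1 of 0 h (0.0929) or replicate 2 of 12 h (0.0585). Both 12 h calls were also lost in the fit to the compared time points alone (adjusted p = 0.0657 for MARS1 and 0.0752 for YARS1). In all 5 genes every later library lay below both libraries of 0 h. Libraries without overlap, lower than 0 h, were found for 12 of the 17 cytosolic genes at 12 h, where 19.6% of all genes tested had them, and for 11 at 24 h, where 21.7% did.

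MARS1 shares 355 exon bases (5.05% of its own) with DDIT3, which lies on the other strand. DDIT3, a transcription factor gene of the same stress response as ATF4, fell at both times (log2 change -0.47 and -0.996). It is in none of the lists read below and is named for this overlap. The strand setting of the counting is not given in the sources used here, and the part of DDIT3 reads in the MARS1 values was not tested. Across its 8 libraries MARS1 had 203927 counts and DDIT3 37428.

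The 6 cytosolic genes that did not pass the test at either time were FARSA and FARSB (the 2 subunits of the phenylalanyl enzyme), HARS1 (histidyl), QARS1 (glutaminyl), RARS1 (arginyl) and VARS1 (valyl). Their log2 changes at 24 h lay between -0.018 and 0.049, with adjusted p of 0.554 or more. QARS1 (ENSG00000172053.18, chr3:49095932-49105130) had the smallest change of the cytosolic genes. It was at 189 and 204 CPM at 0 h, 203, 189 and 195 CPM at 12 h, and 196, 196 and 192 CPM at 24 h, and the 3 times overlapped (24 h log2 change -0.011, SE 0.046, adjusted p = 0.918). FARSA was higher in each library of 12 h (195, 191 and 189 CPM) than at 0 h (171 and 184 CPM), by a log2 change of 0.11 that did not pass (adjusted p = 0.121), though it did in DESeq2 (adjusted p = 0.0447) and without the unnumbered 0 h library (adjusted p = 0.0268). VARS1 passed as higher at 12 h only without that same library (log2 change 0.15, adjusted p = 0.0453). HARS1 shares 7.70% of its exon bases with WDR55 on the other strand.

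Genes inside and outside the multi-synthetase complex fell. Of the 6 cytosolic genes of the complex, EPRS1, IARS1, LARS1 and MARS1 fell at both times and QARS1 and RARS1 did not pass, and 7 of the 11 genes outside it fell. The complex's 3 scaffold genes did not pass at either time. EEF1E1 had a 24 h log2 change of -0.094 (SE 0.086, adjusted p = 0.540) and AIMP2 one of 0.034 (SE 0.055, adjusted p = 0.762). By the fold of the catalytic domain, 7 of the 10 cytosolic genes of class I (EPRS1, which has a domain of each class, counted there) and 4 of the 7 of class II fell at each time.

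Of the 2 genes that serve both compartments, 1 fell. GARS1 (ENSG00000106105.15, chr7:30580533-30634033), whose glycyl enzyme reaches mitochondria through a second start codon, was at 625 and 585 CPM at 0 h. It was at 474, 452 and 466 CPM at 12 h and at 406, 441 and 417 CPM at 24 h, without overlap between the times. It fell by 23.3% at 12 h (log2 change -0.38, SE 0.044, adjusted p = 4.61e-07) and by 30.4% at 24 h (log2 change -0.52, SE 0.044, adjusted p = 2.56e-10), a fall exceeded among the 35 genes only by that of WARS1. KARS1 (ENSG00000065427.15, chr16:75627474-75648643), the lysyl gene of the complex, was at 216 and 220 CPM at 0 h, 210, 216 and 212 CPM at 12 h, and 206, 212 and 216 CPM at 24 h. Its libraries of 12 h and 24 h lay just below those of 0 h, and its change did not pass (24 h log2 change -0.045, SE 0.043, adjusted p = 0.568). TERF2IP, on the other strand, shares 4.35% of the exon bases of KARS1, and GARS1-DT shares 1.80% of those of GARS1.

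The mitochondrial genes gave 0 calls by edgeR in each comparison. At an unadjusted p under 0.05, 2 were higher at 12 h, and 1 was lower and 3 were higher at 24 h. The share of all genes at that threshold was not computed. DESeq2 called 0 at 12 h, and at 24 h EARS2 lower (adjusted p = 0.0311) and TARS2 higher (adjusted p = 0.0382). The SE of the 24 h change was 0.044 to 0.10 for the 15 mitochondrial genes other than VARS2, against 0.041 to 0.051 for the cytosolic genes. The 95% interval of the 24 h change lay above the cytosolic median of -0.24 in 14 of these 15 genes, and that of the 12 h change above the cytosolic median of -0.16 in 12. The same was so for 6 of the 17 cytosolic genes at 24 h and for 6 at 12 h. These counts are no test of a difference between the sets, since the medians came from these same data. The share of all genes with such an interval was not computed.

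The 4 mitochondrial genes with the smallest p at 24 h were EARS2, TARS2, SARS2 and VARS2. EARS2, the glutamyl gene (ENSG00000103356.18, chr16:23520754-23557731), was at 106 and 105 CPM at 0 h, 102, 101 and 99.7 CPM at 12 h, and 93.8, 98.8 and 97.8 CPM at 24 h (24 h log2 change -0.12, SE 0.046, adjusted p = 0.0688). Its 24 h adjusted p ranged from 0.0102 to 0.262 over the alternatives. TARS2, the threonyl gene (ENSG00000143374.17, chr1:150487364-150507609), was at 49.1 and 52.3 CPM at 0 h, 55.5, 54.5 and 55.7 CPM at 12 h, and 57.0, 55.0 and 55.2 CPM at 24 h (24 h log2 change 0.14, SE 0.052, adjusted p = 0.0710). For both genes no library of 24 h overlapped those of 0 h.

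SARS2, the seryl gene (ENSG00000104835.15, chr19:38915266-38930763), was at 6.38 and 6.23 CPM at 0 h, 7.05, 7.09 and 7.46 CPM at 12 h, and 7.42, 7.81 and 7.15 CPM at 24 h (24 h log2 change 0.24, SE 0.10, adjusted p = 0.101). A protein-coding gene that is not among the counted genes shares 48.2% of the exon bases of SARS2 on the same strand. VARS2, the valyl gene (ENSG00000137411.19, chr6:30914205-30926459), had 7 to 27 counts per library, or 0.0795 and 0.124 CPM at 0 h, 0.272, 0.247 and 0.183 CPM at 12 h, and 0.242, 0.197 and 0.368 CPM at 24 h. A noncoding gene with 3 counts in all shares 63.0% of its exon bases on the same strand. Its 24 h log2 change of 1.39 (SE 0.61, adjusted p = 0.123) was thus the least certain of the 35.

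Among the remaining mitochondrial genes the 24 h log2 changes ran from -0.13 in PARS2 (prolyl) to 0.12 in MARS2 (methionyl). IARS2, the isoleucyl gene and by far the most counted of the set, was at 278 and 259 CPM at 0 h, 278, 280 and 273 CPM at 12 h, and 251, 249 and 258 CPM at 24 h. Between 12 h and 24 h it was lower by a log2 change of -0.13 that just missed the threshold (adjusted p = 0.0626) and passed under 8 of the alternatives, among them the replicate block (adjusted p = 0.0226) and DESeq2 (adjusted p = 0.00689). HARS2, the histidyl gene, was higher in every later library than at 0 h, and its 12 h log2 change of 0.13 (adjusted p = 0.106) passed only with the correction for GC content and length.

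Setting each cytosolic gene beside the mitochondrial gene for the same amino acid gave 17 pairs, in which EPRS1 was paired with both EARS2 and PARS2 and FARS2 with both FARSA and FARSB. The log2 change of the cytosolic gene was the lower one in 15 of 17 pairs at 12 h and in 15 of 17 at 24 h, with a median difference of -0.21 and -0.25. The ratio of the pair within each library was lower in all libraries of 12 h than in those of 0 h in 13 pairs, and in all of 24 h in 12. Without the valyl pair the numbers were 12 and 11 of 16. Among all genes tested, taken singly, 19.6% at 12 h and 21.7% at 24 h were lower without overlap. The share over other pairs of genes was not computed. The widest difference outside the valyl pair was in the tryptophanyl pair (24 h, -0.74, SE 0.077), in which WARS2 had a log2 change of -0.0074. It was followed by the seryl pair (-0.65, SE 0.11) and the threonyl pair (-0.39, SE 0.067). The phenylalanyl pairs were the 2 in which the cytosolic gene did not have the lower change at 24 h (differences of 0.052 and 0.051). With 3 against 2 libraries no exact test of a pair's ratio could reach 0.05, and the pairs are given as a description.

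**Figure D4:**
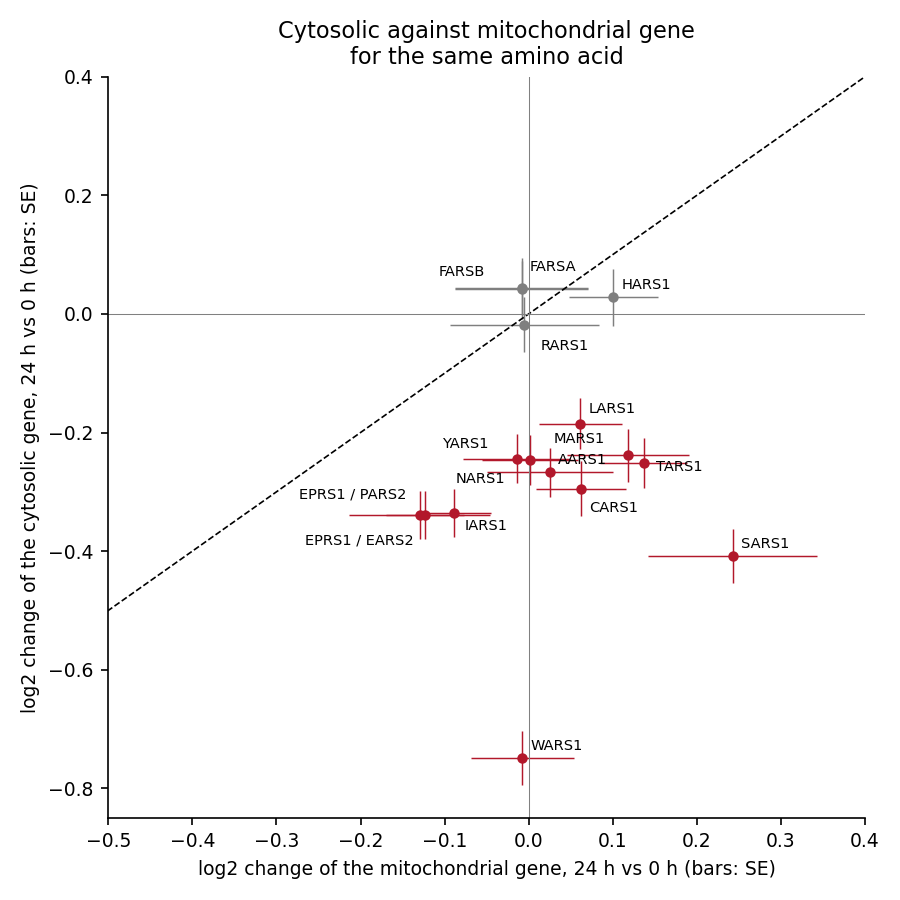
Log2 change at 24 h against 0 h of the cytosolic gene (vertical axis) against that of the mitochondrial gene for the same amino acid (horizontal axis), with SE bars, for 16 pairs without the valyl one. Points are named by the cytosolic gene, red where it passed an adjusted p of 0.05; the dashed line marks equal change, and 14 of the 16 points lie below it.

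The cytosolic and mitochondrial sets also differed in level. Per kb of exon, the mean level at 0 h had a median of 41.8 CPM over the cytosolic genes, from 7.03 in HARS1 to 153 in EPRS1. Over the mitochondrial genes the median was 6.12 CPM per kb, from 0.0157 in VARS2 to 65.0 in IARS2. GARS1 was at 34.9 and KARS1 at 53.8 CPM per kb. The exon length is that of all annotated transcripts of a gene, so a gene with long alternative transcripts is scaled down. The cytosolic genes that fell had 15.1 to 153 CPM per kb at 0 h and those that did not pass had 7.03 to 73.0, with medians of 60.0 and 36.7. AARS1, EPRS1, NARS1, SARS1 and TARS1 lay above every cytosolic gene that did not pass. Across the 17 cytosolic genes, the log2 level per kb at 0 h and the 24 h change had a Pearson r of -0.42 and a Spearman rho of -0.43. These are given as a description, since the genes share their libraries and are not independent. With the log2 level in CPM, not divided by length, the Pearson r was -0.63. IARS2, with a level above the cytosolic median, had a 24 h log2 change of -0.089, and KARS1 and FARSA at comparable levels had -0.045 and 0.044. The part of the level in the difference between the sets was not tested.

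**Figure D5:**
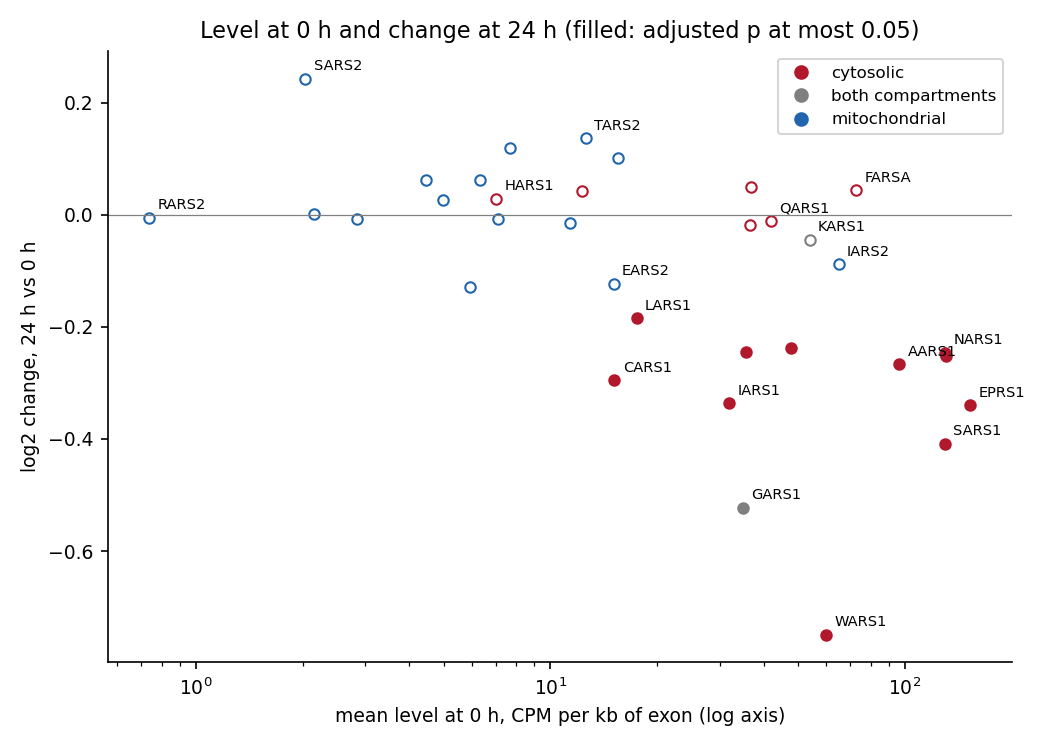
Log2 change at 24 h against 0 h (vertical axis) against the mean level at 0 h in CPM per kb of exon (horizontal log axis) for 34 synthetase genes, VARS2 left out. Filled points passed an adjusted p of 0.05; red points are cytosolic, blue mitochondrial and grey GARS1 and KARS1, and genes at similar levels such as FARSA (73.0) and WARS1 (60.0) lie far apart in change.

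Most of the fall was in place by 12 h. Over the 11 cytosolic genes that passed at 24 h, the log2 change at 12 h was a median of 0.752 of that at 24 h. Between 12 h and 24 h only WARS1 (log2 change -0.27, SE 0.042, adjusted p = 0.000190) and AARS1 (-0.14, SE 0.037, adjusted p = 0.0314) fell further. At an unadjusted p under 0.05, 5 of the 17 were lower, and DESeq2 called 3 lower, among them YARS1 (adjusted p = 0.0471). For these counts, too, the share over all genes was not computed. By edgeR 0 of the 17 rose (0 also at an unadjusted p under 0.05 and 0 in DESeq2), where 1.61% of all genes tested fell and 1.12% rose. Past a fold of 1.5 as well, 0 fell, where 0.104% of all genes did. The AARS1 call did not hold without replicate 3 of 12 h (adjusted p = 0.216) or without any 1 of the 3 replicates of 24 h (0.123 to 0.158). SARS1 passed only without replicate 2 of 12 h (adjusted p = 0.0131). GARS1 had a log2 change of -0.14 with an adjusted p of 0.0537, and it passed under 10 alternatives, among them the replicate block (adjusted p = 0.0238). LARS1 and NARS1 had changes of 0.056 and 0.0078, neither past the test. The median over the 17 cytosolic genes was -0.063, and over all genes tested 0.0035. By edgeR, 0 of the 16 mitochondrial genes passed, with 1 lower at an unadjusted p under 0.05 and 1 lower in DESeq2.

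Genes on either side of charging were read from lists of the pathway. In the list for sensing uncharged tRNA, ATF4 fell by 0.16 on the log2 scale at 12 h (SE 0.043, adjusted p = 0.0151). At 24 h it had fallen further, to a log2 change of -0.30 (SE 0.043, adjusted p = 5.08e-06). Its level was 1342 ± 9.74 CPM (SD, n = 2) at 0 h, 1204 ± 68.2 CPM (SD, n = 3) at 12 h and 1091 ± 15.3 CPM (SD, n = 3) at 24 h. ASNS, a known ATF4 target, fell by 0.27 (adjusted p = 0.00604) and 0.36 (adjusted p = 0.000207) on the log2 scale at the 2 times, and its 0 h level of 33.4 ± 0.961 CPM (SD, n = 2) stood at 26.1 ± 2.43 CPM (SD, n = 3) by 24 h. In that list of 6, EIF2AK4 rose at both times (log2 change 0.19 and 0.19, adjusted p = 0.00566 and 0.00285), and GCN1, which GCN2 needs for its activation, rose at 12 h (0.26, adjusted p = 0.000784) and had a log2 change of 0.099 at 24 h (adjusted p = 0.224). These 2 genes were picked after their values were seen.

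Of 13 genes for making, splicing and exporting tRNA, 2 fell and 1 rose at each time. Of all genes tested, 6.75% fell and 4.85% rose at 12 h, and 8.49% fell and 7.82% rose at 24 h. XPOT, the exportin that carries tRNA out of the nucleus, fell by 0.35 on the log2 scale at 12 h (adjusted p = 3.11e-06). Its 24 h log2 change was -0.39 (SE 0.046, adjusted p = 1.89e-07), and 879 ± 73.9 CPM (SD, n = 2) at 0 h compared with 671 ± 20.6 CPM (SD, n = 3) at 24 h. Of the tRNA-splicing endonuclease, the subunit gene TSEN15 fell (24 h log2 change -0.29, adjusted p = 0.000307) and TSEN54, picked after its values were seen, rose (0.29, adjusted p = 0.00248).

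Of 10 other genes for charging or for processing charged tRNA, 1 fell and 2 rose at 24 h. The shares of all genes tested were 8.49% lower and 7.82% higher. TARS3, a second cytosolic threonyl enzyme, rose by a 24 h log2 change of 0.33 (SE 0.055, adjusted p = 3.01e-05), while TARS1 fell. TARS3 was at 47.7 ± 0.694 CPM (SD, n = 2) at 0 h and at 60.1 ± 1.44 CPM (SD, n = 3) at 24 h. GATB, a subunit of the mitochondrial amidotransferase that makes glutaminyl-tRNA, fell (-0.19, adjusted p = 0.0164). MTFMT, which formylates the mitochondrial initiator tRNA and was picked after its values were seen, rose (0.20, adjusted p = 0.0417).

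Genes for elongation factors, which bring charged tRNA to the ribosome and move it along, were also read. At 24 h, 8.49% of all genes tested fell and 7.82% rose. Of 5 cytosolic ones tested, EEF1A2 rose at 24 h (log2 change 0.15, adjusted p = 0.00805) and EEF1B2 had -0.071 (adjusted p = 0.392). Of 4 mitochondrial ones, GFM1 fell at 24 h (log2 change -0.17, adjusted p = 0.0201) and TUFM had 0.078 (adjusted p = 0.263). Of 77 genes for proteins of the mitochondrial ribosome, 3 fell and 4 rose at 12 h, and 4 fell and 6 rose at 24 h. Their median log2 change was 0.014 and -0.00045. These counts lay near or below the shares of all genes tested. Those shares were 6.75% lower and 4.85% higher at 12 h, and 8.49% and 7.82% at 24 h. The 2 with the smallest p at 24 h were MRPL12, which rose (0.33, SE 0.065, adjusted p = 0.000398), and MRPS18B, which fell (-0.21, SE 0.047, adjusted p = 0.00153).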

How the data were processed

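RNA of 8 LNCaP libraries was sequenced in pairs of reads. Per the study's methods, the authors trimmed reads with Cutadapt, aligned them with STAR to GRCh38.p13 and counted reads per gene of GENCODE with featureCounts. The deposited values are raw counts per gene, and the settings for strand, read pairs and multiply mapped reads are not given in the sources used here. One 0 h column carries a replicate number that no 0 h label has, and it was used as an unnumbered 0 h library.

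Genes were filtered with filterByExpr, scaled by TMM and tested with edgeR 4.0.16 (quasi-likelihood, robust, 1 coefficient per time, all 8 libraries, Benjamini-Hochberg over 21071 genes). Past the test means an adjusted p of at most 0.05. CPM use TMM-scaled library sizes, SE come from the log2 change and F statistic, and 95% intervals are 1.96 SE. The biological coefficient of variation was 5.59%. Exon overlaps came from GENCODE 44, in which 31 of the 35 genes had unchanged coordinates.

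Values in every library are given for the 6 cytosolic and 4 mitochondrial genes with the smallest p at 24 h, GARS1, KARS1 and the cytosolic gene with the smallest change, and for the 2 genes of each other list with the smallest p at 24 h the results of the test are given. Other genes named are members, markers or genes that overlap a member, or are marked as picked after their values were seen. The test results of DDIT3 and VWF were given outside the rule on the smallest p. The genes and lists were chosen with earlier results of these data known. Replicates of a time differed by more than sampling noise (chi-square per degree of freedom 5.32 to 15.2). The deviations of same-numbered 12 h and 24 h libraries correlated at 0.130, 0.0314 and 0.0261, so the numbers were not taken as pairs. Alternatives were RLE and upper-quartile scaling, no filter, DESeq2 1.42.0, the compared times alone, a replicate block, stricter thresholds, leaving out each library and, added after seeing the data, a correction for GC content and length. The procedure was tested on simulated data. COL1A2 and EEF1G were not analysed here. Some genes of the marker and charging lists are not reported here.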

Additional observations from a re-analysis of the deposited data

How the results depend on the processing

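Of 1505 values of single genes compared over the alternatives, 0 called changes reversed, 24 calls were lost and 32 gained. Of 12 calls each at 12 h and 24 h, 9 and 11 held under every alternative other than the stricter thresholds. The exceptions are given beside AARS1, MARS1, YARS1 and LARS1, and the cause was not tested. With a fold of 1.5 added, 0 cytosolic genes fell at 12 h, 1 at 24 h and 0 between 12 h and 24 h, and at an adjusted p of 0.01 the counts were 8, 11 and 1. DESeq2 called 1 cytosolic gene higher at 12 h (FARSA). DESeq2 and the compared times alone each called 1 mitochondrial gene lower (EARS2) and 1 higher (TARS2) at 24 h. With the correction for GC content and length, 1 mitochondrial gene was higher at 12 h (HARS2), 1 lower at 24 h (EARS2) and 1 lower between 12 h and 24 h (IARS2), and the 24 h medians were -0.21 (cytosolic) and 0.037 (mitochondrial). Upper-quartile scaling, DESeq2, the compared times alone and the replicate block also called 1 mitochondrial gene lower between 12 h and 24 h (IARS2). The replicate block kept 2 cytosolic genes lower there, 12 h replicate 2 correlated best with 24 h replicate 3 (0.0869), and the libraries share only a number. With each library left out in turn, the lower cytosolic genes numbered 8 to 11 at 12 h, 10 to 11 at 24 h and 1 to 3 between them, and the higher ones 0 to 2 at 12 h and 0 otherwise. The mitochondrial counts were 0 at 12 h, 0 to 1 in each direction at 24 h, and 0 to 1 lower between 12 h and 24 h. The cytosolic medians ranged from -0.20 to -0.14, from -0.25 to -0.21 and from -0.073 to -0.041, and the mitochondrial ones from 0.0033 to 0.037, from 0.011 to 0.035 and from -0.0020 to 0.021. VARS2 had the fewest counts of the 35 genes, 7 to 27 per library.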
